A study of Mus musculus with 2 samples.

Results

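Tubulins, kinesins and dyneins, the building blocks and motors of microtubules, were compared between the epididymal fat of mice lacking the nuclear receptor PPARβ/δ and that of wild-type mice. Members were chosen by gene symbol alone: every probe set that names 1 gene with a symbol starting Tuba, Tubb, Tubg, Kif and a digit, Dnah, Dnai or Dnal, Dync or Dynl. This gave 110 of 22690 probe sets, which stand for 56 of 12394 genes. There were 5 axonemal dynein genes (symbols starting Dnah or Dnal), 9 cytoplasmic dynein genes (Dync or Dynl), 24 kinesins, 14 tubulins and 4 genes of the γ-tubulin complex (Tubgcp). A further 10 probe sets name a member together with other genes and were not counted.

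The wild-type pool held RNA of 5 male animals, given in the labels as 129S1/SvJae mice of 12 to 16 weeks. The knockout pool held RNA of 5 male PPARb/d knock-out animals of 12 weeks, on a mixed Sv129/C57BL/6 background. The design text calls the controls littermates on that mixed background, so strain may differ between the pools. All animals ate chow, the tissue was epididymal white fat, and 1 Affymetrix array was run for each pool. No spread between animals or arrays exists, no test between genotypes was possible, and every difference below describes these 2 arrays. Each pair of values below is an intensity, with the wild-type array given before the knockout array, and each log2 difference is the knockout value less the wild-type value. A gene was kept when a probe set of it reached an intensity of 32 (log2 of 5) on at least 1 array, and the brightest kept probe set, by mean log2 value, stood for the gene.

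Microtubules are hollow tubes of paired α- and β-tubulin that are seeded from complexes of γ-tubulin. Kinesins mostly walk towards their growing ends and cytoplasmic dynein towards the other end, carrying organelles and vesicles, while some kinesins take microtubules apart or work in the mitotic spindle. Axonemal dyneins are a separate set of motors, fixed inside motile cilia and the sperm tail, where they slide microtubules to make the axoneme bend. In adipocytes, microtubules serve the traffic of vesicles that hold the glucose transporter GLUT4 and the secretion of adipokines.

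The probe set of Ppard, the targeted gene, was at 6.58 and 6.27, under the floor, and gives no check of the genotype. The tissue label was checked against marker lists. All 12 kept adipocyte markers were at the floor or above it on both arrays, among them adiponectin (Adipoq), at 10259 and 8030. The whole list was lower in the knockout pool and 7 members by 2-fold or more (median log2 difference -1.12), beside 9.14% of all kept genes. Macrophage markers (10 of 10 lower, median -1.01), endothelial markers (7 of 8 kept, median -0.96) and fibroblast markers (5 of 7 kept, median -0.54) were mostly lower as well. Of all 6533 kept genes, 3629 were lower to any degree, and the median over all was -0.08. Of 9 Sertoli and Leydig cell markers with a probe set 2 were kept, with a median of 1.43, and 7 were below the floor on both arrays. The kept ones were Sox9, at 37.9 and 39.1, and Cyp17a1, a steroid-making enzyme, at 44.0 and 311.6. The 23 kept germ cell markers were all higher in the knockout pool by 2-fold or more, beside 13.7% of all kept genes. Their median log2 difference was 4.67. Their intensities summed to 4004 and 76375, and 9 of them were under the floor on the wild-type array, against 0 on the other. Epididymis markers summed to 49089 and 57087. Genotype and the amount of germ cell RNA cannot be told apart with 1 pool of each genotype, and in bulk tissue fewer cells of a type cannot be told apart from less RNA per cell.

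Most members with a 2-fold difference were higher in the knockout pool. Of the 56 genes, 31 were kept, 19 of them higher and 12 lower to any degree, and 25 did not reach the floor in either pool. Of the 31, 12 were higher in the knockout pool by 2-fold or more, where 13.7% of all 6533 kept genes were, and 2 were lower by that much, where 9.14% of all kept genes were. With values under the floor set to it these counts were 10 and 2, beside 11.4% and 7.99% of all kept genes. However, 9 of the 31 reached the floor in the knockout pool alone and had to be higher there to be kept, whereas 0 reached it in the wild-type pool alone. Among the 22 members at the floor in both pools, 5 were 2-fold higher or more and 2 lower, beside 7.91% and 8.84% of the 5452 genes at the floor in both pools. The median log2 difference of these 22 was -0.15, and that of the 5452 genes was -0.12. When the floor was put on the mean of both arrays, 30 members were kept, 11 of them 2-fold higher and 2 lower, beside 12.2% and 9.04% of 6071 genes. Over all 56 genes with no floor the median was 0.08, against -0.07 over all 12394 genes. The set was split, with some members far above zero and others near or below it.

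**Figure D1:**
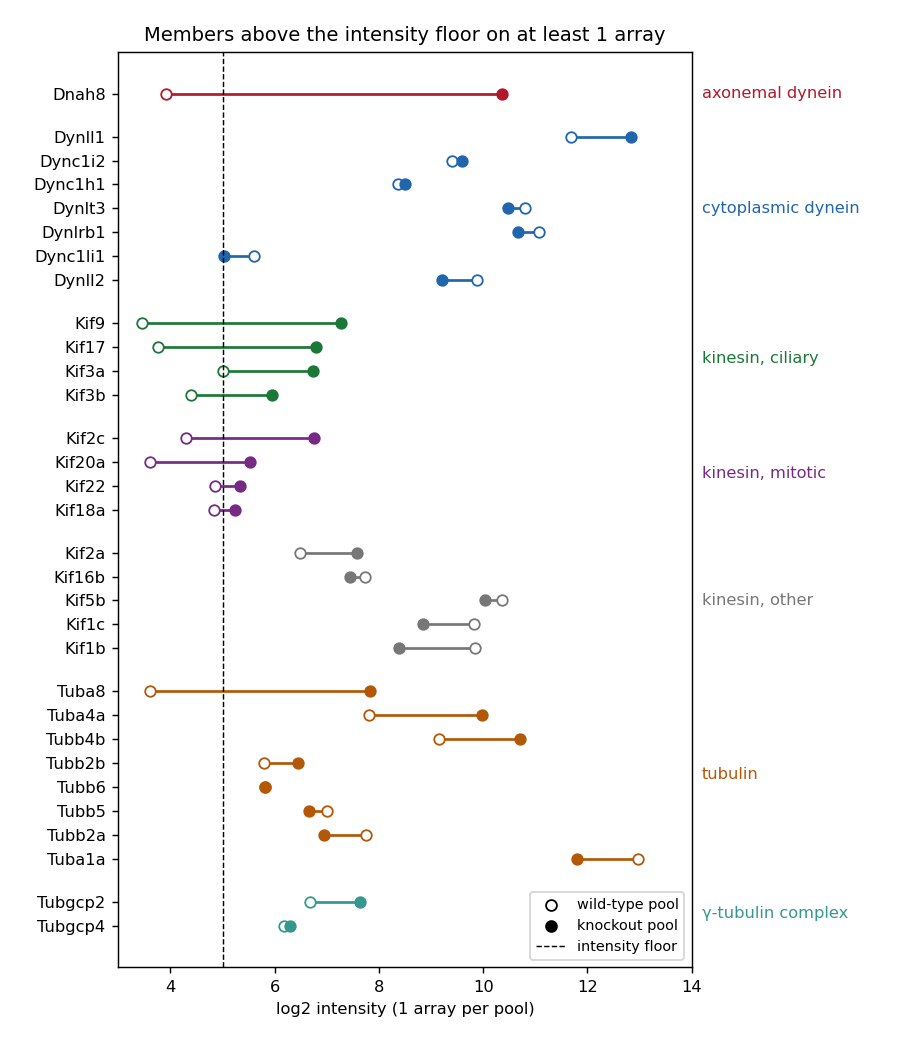
Log2 intensity of the 31 kept members, with the wild-type array as open and the knockout array as filled circles, grouped by role, with 1 array per pool and the intensity floor as a dashed line. Dnah8, Kif9, Kif17 and Tuba8 lie under the floor in wild type and well above it in the knockout, whereas all 7 kept cytoplasmic dyneins are at the floor or above it in both.

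Among axonemal dyneins, 1 gene of 5 was above the floor, and it had the largest difference of all members. Dnah8, a heavy chain of the dynein arms of the sperm tail, was at 15.2, under the floor, and 1322, a bound of at least 41.3-fold higher. It lies on chromosome 17, as does the targeted gene Ppard. Of the other members there, Tubb5 had log2 differences of -0.34 and -0.83, and Tubb4a and Dynlt1f were below the floor. The part of this position in the difference was not tested. A second probe set of Dnah8 was at 5.76 and 6.53, below the floor in both pools, so the difference rests on 1 probe set, of a type that may match several transcripts. Dnah1, an inner arm heavy chain also needed in the sperm tail, was at 9.41 and 13.3. Dnah5, an outer arm heavy chain of airway cilia, was at 10.0 and 8.96. Dnah11, an outer arm heavy chain known from left-right patterning and airway cilia, was at 11.1 and 11.4, and Dnal4, annotated as an axonemal light chain, at 21.4 and 31.0. These 4 genes were below the floor in both pools, so for them no difference could be measured. With no floor the 5 axonemal genes had a median log2 difference of 0.49, far from the 6.44 of Dnah8.

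Cytoplasmic dyneins mostly differed by less than 2-fold. Of 9 genes 7 were kept, all of them at the floor in both pools, and 1 was at least 2-fold higher and 0 lower, beside 7.91% and 8.84% of all genes at the floor in both pools. Their median log2 difference was -0.33, beside -0.12 over all genes at the floor in both pools, but it was 0.14 with the probe sets of each gene averaged and 0.17 without probe sets of shared sequence. Dync1h1, the heavy chain that carries the motor of cytoplasmic dynein, was at 331 and 364, and Dync1i2, an intermediate chain that binds dynactin, at 675 and 773. Both differed by less than 0.25, the median over all genes of the SD among a gene's own probe sets. Dync1li1, a light intermediate chain that binds cargo adaptors, was at 48.5 and 32.4, a log2 difference of -0.58 close to the floor. The core subunits lay on either side of zero with no difference of 2-fold. Dync1i1, the intermediate chain best known from neurons, was below the floor in both pools, at 16.0 and 16.2.

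The light chains of cytoplasmic dynein did not differ in the same direction. Dynll1, an LC8 light chain that also binds many proteins outside dynein, was at 3316 and 7343, 2.21-fold higher, and its other probe sets were 1.99-fold and 1.86-fold higher. Over all settings tried, its log2 difference ranged from 0.995 to 1.24. Dynll2, the second LC8 light chain, gave opposite answers. Its brightest probe set was at 944 and 594, a log2 difference of -0.67, whereas its other probe set was at 268 and 1684, a difference of 2.65. The brightest one is of a type that shares sequence with other genes, so it is uncertain as to the gene, and without such probe sets the value for Dynll2 was 2.65. Dynlrb1 and Tubb2a, below, are also measured by probe sets of this type. Dynlrb1, a roadblock light chain, was at 2145 and 1632. Dynlt3, a Tctex light chain, was at 1794 and 1423, with its 3 probe sets spread from -0.54 to 0.36. Dynlt1f, another Tctex light chain, was at 5.48 and 5.12 by its own probe set. Probe sets that name it together with other Dynlt1 genes were not counted. Those above the floor were at 2192 and 7489 and at 748 and 4240, and the one below it was at 8.99 and 8.68.

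Axonemal and cytoplasmic dyneins thus differed by 6.78 on the log2 scale when the medians of kept genes were set against each other, but the axonemal side of that figure is Dnah8 alone. With no floor the gap was 0.59, over 5 axonemal and 9 cytoplasmic genes. No test of this gap was possible. The germ cell markers, with a median of 4.67, were measured in the pool in which Dnah8 was high, and their part in its difference was not tested. Foxj1, the factor that switches on motile cilia in multiciliated epithelia, was below the floor on both arrays, at 26.1 and 28.8. The 2 kept multiciliated cell markers, Tppp3 and Myb, had log2 differences of -0.57 and -0.71.

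**Figure D2:**
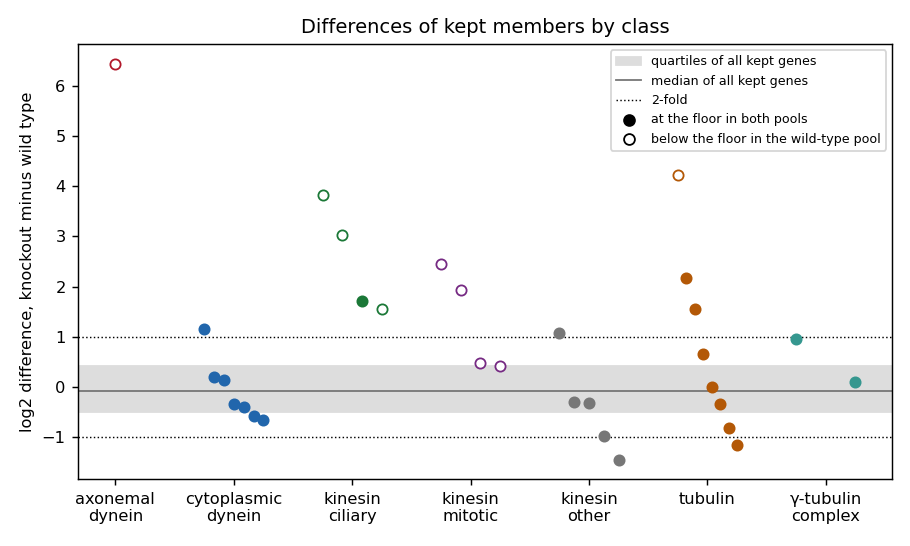
Log2 difference (knockout minus wild type) of each kept member, by class, with 1 point per gene, over the quartiles of all 6533 kept genes (grey band, from -0.50 to 0.42). Open points are genes under the floor on the wild-type array, whose size is uncertain. The ciliary kinesins lie above the 2-fold line, whereas 6 of the 7 cytoplasmic dyneins lie between the 2-fold lines.

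Kinesins held the most members with a 2-fold difference. Of 24 genes 13 were kept, 7 at least 2-fold higher and 1 at least 2-fold lower, beside 13.7% and 9.14% of all kept genes. Of those 7, 5 did not reach the floor on the wild-type array: Kif9, Kif17, Kif2c, Kif20a and Kif3b. Of the 6 kinesins at the floor in both pools, 2 were 2-fold higher and 1 lower, beside 7.91% and 8.84% of all such genes. Their median log2 difference was -0.31, with 2 higher and 4 lower to any degree, whereas the median of the 13 kept kinesins was 1.08. With no floor the median over all 24 was 0.33.

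Among kinesins, Kif9 and Kif17, which have a role in cilia and flagella, had the largest differences by their brightest probe sets. All 4 kept members of this class, of 5 measured, were higher by 2-fold or more, beside 13.7% of all kept genes, but 3 of the 4 reached the floor on the knockout array alone and had to be higher to be kept. With dim values at the floor 3 were 2-fold higher, beside 11.4%. Kif9, a kinesin of motile cilia and the sperm tail, was at 10.9, under the floor, and 154, higher by at least 4.81-fold. Kif17, a motor that carries cargo into cilia and along dendrites, was at 13.5 and 111, higher by at least 3.46-fold. Its other kept probe set was at 16.8 and 43.6. Kif3a and Kif3b together form the motor of intraflagellar transport, the traffic that builds cilia. Kif3a was at 32.3, just above the floor, and 107, a 3.30-fold difference. Its other probe set was below the floor in both pools, at 19.1 and 26.7. Kif3b was at 21.2 and 61.8, which is at least 1.93-fold and so not 2-fold once the wild-type value is set to the floor. Its remaining 3 probe sets were below the floor in both pools. Kif3c, a relative that pairs with Kif3a mainly in neurons, was below the floor, at 21.1 and 16.4. The germ cell markers were higher in the same pool, and their part in these differences was not tested.

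Since several of these genes were high in the knockout pool together, the sequences around their start sites are shown. RefSeq promoters on GRCm38.p6 run from 250 bases before the start site to 50 bases from it on, and 25 of the 31 kept members matched by symbol. Both strands were searched for the cyclic AMP response element TGACGTCA and for the X-box, the paired element bound by RFX factors in promoters of ciliary genes, which is written here by name because its consensus needs degenerate letters. Capitals mark these matches. Kif17 is shown because it holds both elements, Kif9 because it holds an X-box, and Dnah8, Tuba8 and Tuba1a because they had the largest difference of the axonemal dyneins and the highest and the lowest difference of the tubulins, and hold neither element. Where a gene has several start sites the window with the lowest coordinate is printed.
Kif17 (chr4:138262001-138262300, + strand): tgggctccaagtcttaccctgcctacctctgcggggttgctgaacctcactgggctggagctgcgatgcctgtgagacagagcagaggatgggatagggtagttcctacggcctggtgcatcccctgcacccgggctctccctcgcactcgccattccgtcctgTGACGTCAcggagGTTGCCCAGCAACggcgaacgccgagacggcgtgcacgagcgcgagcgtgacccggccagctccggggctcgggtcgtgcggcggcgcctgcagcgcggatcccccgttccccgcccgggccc
Kif9 (chr9:110476708-110477007, + strand): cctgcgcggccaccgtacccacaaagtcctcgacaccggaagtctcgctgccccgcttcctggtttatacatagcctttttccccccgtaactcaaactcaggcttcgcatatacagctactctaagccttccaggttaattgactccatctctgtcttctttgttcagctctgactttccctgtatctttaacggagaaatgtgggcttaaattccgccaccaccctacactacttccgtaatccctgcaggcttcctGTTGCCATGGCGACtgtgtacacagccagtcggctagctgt
Dnah8 (chr17:30626686-30626985, + strand): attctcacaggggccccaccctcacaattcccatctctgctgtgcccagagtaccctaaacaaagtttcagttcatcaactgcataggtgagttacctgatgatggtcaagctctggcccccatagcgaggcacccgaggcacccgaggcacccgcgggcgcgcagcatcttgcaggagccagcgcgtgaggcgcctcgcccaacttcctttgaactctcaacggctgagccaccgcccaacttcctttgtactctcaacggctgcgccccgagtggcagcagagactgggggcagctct
Tuba8 (chr6:121210484-121210783, + strand): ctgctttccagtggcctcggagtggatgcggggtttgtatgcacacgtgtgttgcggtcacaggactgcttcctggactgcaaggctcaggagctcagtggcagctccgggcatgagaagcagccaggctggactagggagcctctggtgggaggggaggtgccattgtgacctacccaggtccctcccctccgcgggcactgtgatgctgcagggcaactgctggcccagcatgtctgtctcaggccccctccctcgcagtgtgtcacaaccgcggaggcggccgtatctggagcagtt
Tuba1a (chr15:98953452-98953751, - strand): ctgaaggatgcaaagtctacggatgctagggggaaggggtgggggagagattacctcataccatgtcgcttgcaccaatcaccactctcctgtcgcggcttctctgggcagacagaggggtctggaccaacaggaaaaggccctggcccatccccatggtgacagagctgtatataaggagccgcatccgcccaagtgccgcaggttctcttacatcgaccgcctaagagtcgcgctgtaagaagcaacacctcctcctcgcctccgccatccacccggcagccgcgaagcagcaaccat

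In Kif17 the response element runs from position -86 to -79 and the X-box from -73 to -61, counted from 0 at the start site. In Kif9 the X-box runs from 9 to 22 of the printed window, and from -27 to -14 of the window of its other start site. The promoter of Kif18a also holds both. The X-box was found in 3 of 25 member genes and in 1.53% of all 32851 promoter windows of the table, and the response element in 3 of 25 (Kif17, Kif18a and Tubb2a) and 1.79%. Of the 11 member genes with a promoter that were at least 2-fold higher, 2 held an X-box and 1 a response element. Further short motifs were more common. The core TGACG was found in 20.8% of all windows and 10 of the 25 member genes, the letters TATAAA in 13.6% and 4 genes, and the letters CCAAT in 37.4% and 8 genes. Each TGACGTCA also holds a TGACG. Member counts are of genes, with 30 windows for the 25, whereas the shares are of single windows. A gene with several windows has more chances of a match, so counts and shares are not like for like. A match is a description of the letters in the window and does not show that a factor binds there.

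Kinesins of the mitotic spindle were dim in wild type. Of 7 genes 4 were kept, and all 4 were under the floor there, so each had to be higher in the knockout to be kept. Kif2c, a depolymerase that corrects chromosome attachments, was at 19.6 and 108, higher by at least 3.37-fold, and its other kept probe set was at 10.6 and 173. Kif20a, which acts in cytokinesis, was at 12.1 and 46.1, at least 1.44-fold. Kif22, a chromosome-binding kinesin, was at 28.9 and 40.3, and Kif18a, which aligns chromosomes, at 28.4 and 37.7. The last pair differed by under 0.5 on the log2 scale. Kif11, the motor that separates spindle poles, Kif23, of the cytokinesis bridge, and Kif4, a chromosome arm motor, were below the floor on both arrays, with Kif11 at 25.6 and 30.6. Of 12 markers of proliferating cells 8 were kept, all of them under the floor on the wild-type array, with summed intensities of 91.7 and 883. Each of the 8 had to be higher in the knockout pool to be kept. Their median log2 difference was 2.89, against 4.67 for the germ cell markers. With values under the floor set to it these medians were 1.10 and 4.53. The germ cell markers include the meiotic genes Sycp1, at 7.66 and 83.3, and Sycp3, at 179 and 854. The part of either list in the differences of the mitotic kinesins was not tested.

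The remaining kinesins, mostly motors of organelle transport, were lower or close to zero with 1 exception. Kif1b, which carries mitochondria and vesicles, was at 919 and 336, 2.73-fold lower. All 4 of its kept probe sets were lower, with log2 differences from -1.55 to -1.45, the closest agreement among members with several kept probe sets. However, those at 43.0 and 15.0 and at 46.2 and 16.2 were under the floor in the knockout pool. They had to be lower to be kept, and the size of their differences is uncertain. The one at 628 and 215 reached the floor in both pools, as did the brightest. Further probe sets of Kif1b, below the floor in both pools, had differences of -0.68, -0.68 and -0.04. Kif1c, a vesicle motor of the same subfamily, was at 901 and 460, 1.96-fold lower. Kif5b, the heavy chain of conventional kinesin, known in adipocytes for moving GLUT4 vesicles, was at 1311 and 1049, a log2 difference of -0.32. All 5 of its probe sets were lower, from -0.80 to -0.08. Kif16b, an early endosome motor, was at 214 and 174 by its brightest probe set and at 92.1 and 157 by the other, so its direction is not settled. The exception was Kif2a, a microtubule depolymerase, which was at 89.7 and 190, 2.12-fold higher, with probe sets from 0.95 to 2.52. Its other kept probe sets were at 28.3 and 54.9, at 21.3 and 122, and at 22.5 and 76.4. All of these were under the floor in wild type, so they had to be higher to be kept. Adipocyte, macrophage and endothelial markers, with median log2 differences of -1.12, -1.01 and -0.96, were measured beside these transport kinesins, and the part of any of them in the differences was not tested.

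**Figure D3:**
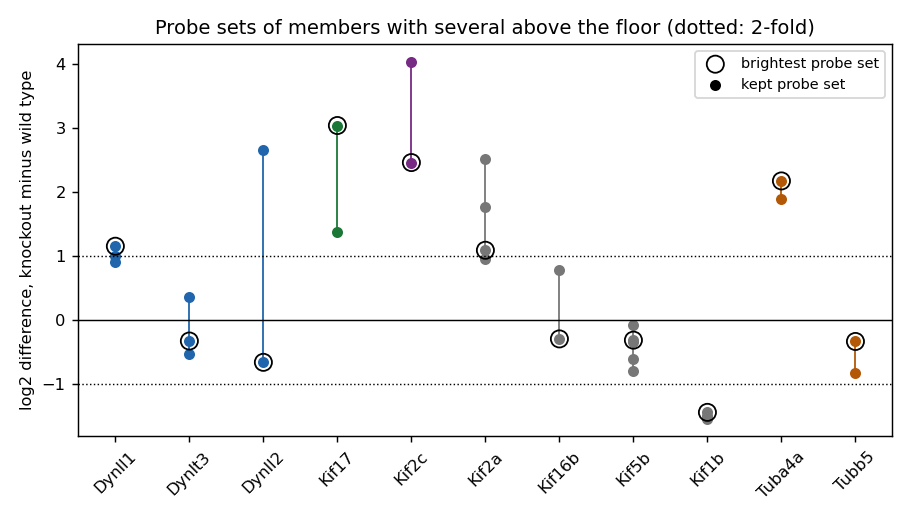
Log2 difference (knockout minus wild type) of every kept probe set of the 11 members that have several, with the brightest probe set of each gene ringed and the 2-fold lines dotted. The probe sets of Kif1b nearly coincide, though some were under the floor in the knockout pool, whereas those of Dynll2, Dynlt3 and Kif16b lie on both sides of zero.

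Agreement between probe sets gave the only measure of spread for single genes. All probe sets of a gene were read on the same arrays, so it holds no error between arrays or pools. Of the 11 members with several kept probe sets, all of them pointed the same way for 8 (72.7%), and among 2137 genes of the whole array with several this share was 72.9%. For Kif17 and Kif2c, among the 8, every kept probe set was under the floor in wild type and had to be higher to be kept. Their agreement was thus set in advance. Some probe sets of Kif2a and Kif1b were also kept through 1 pool alone, which fixed their direction. The same filter was applied to all genes. The SD among probe sets of the same gene, on the log2 difference, had a median of 0.47 in members and 0.25 in all genes. The members that disagreed were Dynll2, Dynlt3 and Kif16b.

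Tubulins were divided between isotypes. Of 14 genes 8 were kept, 3 at least 2-fold higher and 1 at least 2-fold lower, beside 13.7% and 9.14% of all kept genes. Their median log2 difference was 0.32, but -0.0062 for the 7 at the floor in both pools and 0.019 with no floor. Among α-tubulins, Tuba1a, a widely expressed isotype with near-identical relatives, was at 8010 and 3569, 2.24-fold lower. Its probe set is of a type that shares sequence with other genes, so the value is uncertain as to the gene. Tuba4a, an α-tubulin whose gene lacks the codon for the terminal tyrosine, was at 224 and 1008, 4.49-fold higher, and a second probe set was at 196 and 729. A further probe set of Tuba4a was below the floor in both pools, at 9.28 and 8.23. Tuba8, an α-tubulin known from testis, muscle and brain, was at 12.1, under the floor, and 226, higher by at least 7.08-fold. Tuba3b was below the floor by its own probe set, at 4.72 and 4.57. Probe sets that name it together with Tuba3a were not counted, and were at 34.6 and 3633 and at 161 and 7574. The α-tubulins thus included the highest and the lowest difference of all kept tubulins.

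Most β-tubulins lay within 2-fold. Tubb4b, the isotype that is abundant in cilia and flagella, was the exception, at 571 and 1674, 2.93-fold higher by the 1 of its 6 probe sets that was above the floor. Tubb2b was at 55.7 and 87.5, and Tubb6 at 56.4 and 56.2, the smallest difference of all kept members. Tubb5, the main β-tubulin of dividing cells, was at 129 and 102, and its other probe set at 67.1 and 37.6. Tubb2a was at 216 and 123, 1.76-fold lower. The neuronal Tubb3 and Tubb4a and the pseudogene Tubb2a-ps2 were below the floor on both arrays. Higher isotypes were measured beside germ cell markers with a median of 4.67. They were also measured beside the Sertoli and Leydig cell markers Sox9 and Cyp17a1, with log2 differences of 0.05 and 2.82. Lower isotypes were measured beside adipocyte, macrophage, endothelial and fibroblast markers with medians of -1.12, -1.01, -0.96 and -0.54. The part of any of these in the differences was not tested.

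The seeding machinery was hardly measured. Tubg1 and Tubg2, the γ-tubulins of the centrosome, were below the floor on both arrays, at 15.6 and 16.1 for Tubg1. Tubgcp2, a core subunit of the γ-tubulin complex, was at 102 and 200, 1.95-fold higher. Tubgcp4, a subunit of the full ring, was at 72.9 and 78.5. Tubgcp3 and Tubgcp5 were below the floor. The other members below the floor on both arrays were the kinesins Kif1a, Kif5a, Kif5c and Kif21b, which are best known from neurons, and Kif12, Kif13a and Kif21a.

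Partners of the members were taken from lists of related genes, with the axoneme list at the highest median. Of 15 genes of axoneme structure and dynein assembly with a probe set 14 were kept, and all 14 were higher by 2-fold or more, beside 13.7% of all kept genes. However, 10 of the 14 were kept through the knockout array alone, and with dim values at the floor 11 were 2-fold higher, beside 11.4%. Their median log2 difference was 4.10, or 3.59 when values under the floor were raised to it, beside -0.08 over all kept genes. Dnaaf1, which is needed to assemble axonemal dyneins before they enter the cilium, was at 12.3, under the floor, and 907, and Cfap20, an axoneme protein, at 135 and 333. Of 13 genes of intraflagellar transport, the cargo trains of Kif3a and Kif3b, all were higher and 7 at least 2-fold, beside 13.7% of all kept genes, with a median of 1.15. Of the 13, 5 were under the floor in wild type (Ift20, Ift80, Ift81, Ift88 and Ift122). The list ranged from Ift20, at 31.5 and 40.3, to Ift172, at 74.0 and 832.

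Partners shared with the cytoplasm had lower medians than the axoneme list. That of the enzymes that modify tubulin was nevertheless above the 1.15 of intraflagellar transport. Their counts below stand beside the same 13.7% higher and 9.14% lower of all kept genes. The 12 kept genes of dynactin, the cofactor of cytoplasmic dynein, and of dynein adaptors had a median of 0.15, with 3 at least 2-fold higher and 0 lower. With dim values at the floor 2 were 2-fold higher, and without probe sets of shared sequence the median was -0.23. Their extremes were Dctn3, a dynactin subunit, at 928 and 507, and Hook2, a dynein adaptor, at 13.3 and 42.9. Tubulin folding genes had a median of 0.48 over 15, with 12 higher and 3 of these at least 2-fold. The testis subunit of the folding chaperonin, Cct6b, was at 11.9 and 477, whereas Cct6a, the general form of this subunit, was at 2184 and 2258. Microtubule-associated proteins had a median of 0.05 over 12 kept genes, from Clasp2, which stabilises growing ends, at 95.6 and 37.5, to the destabiliser Stmn1 at 149 and 605. Enzymes that modify tubulin had a median of 1.33 over 7 kept genes, but 0.35 over all 10 with no floor and 0.29 with the floor at log2 4. They ranged from the tyrosine ligase Ttl, at 47.1 and 34.3, to Tpgs2, a subunit of a polyglutamylase, at 66.8 and 986. Of kinesin light chains, kinesin partners and C-terminal kinesins 2 were kept, Kifap3, the accessory subunit of the Kif3 motor, at 124 and 112, and the light chain Klc3 at 18.8 and 35.0. These lists describe the same 2 arrays, and none of the differences between lists was tested.

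**Figure D4:**
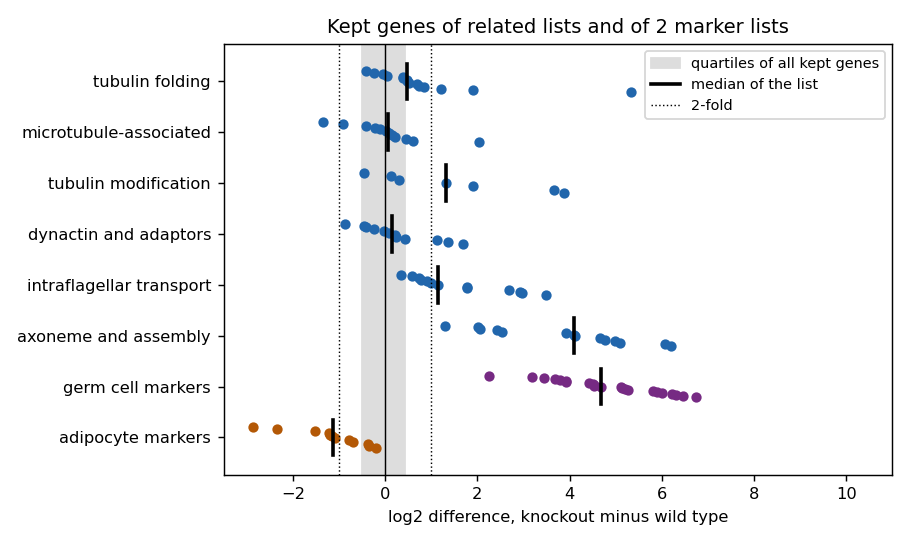
Log2 difference (knockout minus wild type) of each kept gene in 6 lists of related genes (blue), of germ cell markers (purple) and of adipocyte markers (brown), with the list median as a black bar and the quartiles of all kept genes as a grey band. Axoneme genes (median 4.10) lie near the germ cell markers (median 4.67), whereas dynactin (0.15) and microtubule-associated genes (0.05) lie around zero.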

How the data were processed

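The authors deposited a linear intensity per probe set. The submitters' processing notes name GCRMA 2.20, a method that corrects background, normalises quantiles and summarises probes; it compresses dim signals, so folds near background are unreliable. The arrays normalised jointly are not stated. Because the planned analysis assumed log2 values, intensities were log2-transformed first.

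Members and gene lists were chosen with earlier results of these data known. Of 22690 probe sets, 20393 name 1 gene (20364 updated by Entrez identifier to GRCm38.p6 symbols), 691 several and 1606 none. The floor of 32, which stands in for detection calls, was reached by 42.0% (wild type) and 43.1% (knockout) of probe sets. Of the 110 member probe sets 59 were below it on both arrays, and those of genes with a brighter probe set are not all given. Any member could be named, and all those with a 2-fold difference are. Genes outside the families come from lists, at their extremes, or first in a marker list, except Cct6a, chosen after its values were seen, and a few others. These are the targeted gene Ppard, the meiotic marker Sycp1, and Ift80, Ift81, Ift88 and Ift122, named because they were under the floor in wild type. Alternatives changed the floor, centring, intensity trend (lowess, span 0.3), probe set choice and symbols. The setting without probe sets of shared sequence also left out the type that may match several transcripts. That type includes the brightest ones of Dnah8, Kif9, Kif20a, Dynll1 and Tuba4a. Where the dimmer value is under the floor, a fold is a lower bound (at least), computed with 32 in its place. Python 3.11.15, pandas 2.3.3 and statsmodels 0.14.6 were used, and the counting was tested on simulated data. With 1 array per pool there is no p-value and no SD between samples, and the number of arrays limits the precision.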

Additional observations from a re-analysis of the deposited data

Results flagged for a closer look

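Probe sets that name several genes entered none of the comparisons. Of the 10 that name a member 7 were above the floor on at least 1 array. Of these, 4 were higher by 2-fold or more on the knockout array than on the wild-type array, and 0 lower. That is what drew attention to them. Among all kept genes, each measured by a probe set naming 1 gene, 13.7% were higher by that much. The share over all probe sets that name several genes was not computed. Both probe sets shared by Tuba3a and Tuba3b, α-tubulins known from the mouse testis, were higher. The first was at 34.6 (wild type) and 3633 (knockout), a log2 difference of 6.71, and the second at 161 and 7574, a difference of 5.56. Both probe sets shared by Dynlt1a, Dynlt1b, Dynlt1c and Dynlt1f, near-identical Tctex light chains of dynein, were higher too. They were at 2192 and 7489, a difference of 1.77, and at 748 and 4240, a difference of 2.50. Which gene of each group gave the signal cannot be read from these probe sets, and there is 1 array per genotype, so no test was made. Germ cell markers were higher in the same pool by a median of 4.67, and their part in these values was not tested.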

How the results depend on the processing

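No paired analysis was possible because each genotype has 1 array, and for the same reason no replicate could be left out. Of 76 recomputed values for the counts and class medians 54 stayed within the spread between probe sets (0.25) or, for counts, within 1.5 times. The 54 include values that could hardly move. Updating symbols before the rule changed none of them. Raising dim values could not shift the median of the cytoplasmic dyneins, all at the floor in both pools. The median of axonemal dyneins, 6.44 from Dnah8 alone, was 3.49 with the floor at log2 4, 0.49 without a floor and 5.37 with dim values set to the floor. It had no value without probe sets of shared sequence or at the floor in both pools, since Dnah8 is then not kept. Its gap to the cytoplasmic dyneins, 6.78, was 3.64, 0.59 and 5.70 under those settings and 6.31 with probe sets averaged. The cytoplasmic median, -0.33, turned positive with probe sets averaged (0.14) and without probe sets of shared sequence (0.17). The kinesin median, 1.08 over kept genes, was 0.48 with a floor of log2 4, 0.33 with none, 0.53 with dim values at the floor, 1.55 with probe sets averaged and 0.75 without shared sequence. With the floor set on the mean of both arrays it was 0.78, and over the 6 at the floor in both pools it reversed to -0.31, both alternatives chosen after seeing the data. The tubulin median, 0.32, was 0.65 with a floor of log2 6, 0.019 with none, -0.0062 over genes at the floor in both pools and 1.10 without shared sequence. Members at least 2-fold higher numbered 9 to 13, except among those at the floor in both pools, where they numbered 5. Members at least 2-fold lower numbered 2, but 1 without shared sequence, which removes Tuba1a. Of the 14 members with a 2-fold difference 11 had it under every setting that kept them, the exceptions being Dynll1, Kif20a and Kif3b. Of the 31 kept members 28 kept their sign, the exceptions being Dynll2, Kif16b and Tubb6. The cause of these shifts was not tested.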

Other observations

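Other probe sets that name a member together with further genes gave values between the pools that differed by less than 2-fold. That naming Tuba1b, a widely expressed α-tubulin, and Gm5620 was at 5881 (wild type) and 3820 (knockout), 1.54-fold lower. The brighter of 2 naming Tuba1c and Gm6682 was at 146 and 165, and the dimmer at 32.8 and 41.1. The remaining 3, which name Tuba1a, Tubb2b or Dynlt1 genes with others, were below the floor on both arrays.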
